A study of Mus musculus with 72 samples.

Results

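The question was what still differs in liver mRNA between the 2 highest doses of whole body X-irradiation, 12 Gy and 8 Gy. The comparison used 6 of the 72 arrays of the series, namely the liver mRNA arrays labelled 48 hr after 12Gy (mice 6, 16 and 26) and 48 hr after 8Gy (mice 5, 15 and 25), 1 array per mouse. All 56605 non-control probes of the 1-colour Agilent mouse array were eligible, and the 38362 that were well above background on at least 1 of the 18 liver arrays were tested. The mice were female C57BL/6 J, 6 to 8 weeks old, and each received a single surface dose at 1.05 Gy/min and was killed 48 h later. Both groups were irradiated, so neither is an untreated control, and the sham-irradiated 0 Gy mice and those given 1, 2 or 4 Gy, also 3 per dose, entered the same fit and are quoted only to place the values.

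Ionizing radiation breaks DNA and stabilizes the transcription factor p53, which turns on genes that halt the cell cycle, limit p53 itself or promote cell death. Hepatocytes, the main cells of the liver, rarely divide and tolerate radiation well, whereas lymphocytes and the red cell precursors of the marrow are among the most radiosensitive cells of the body. A piece of liver also holds Kupffer cells, which are the resident macrophages, along with natural killer (NK) cells, T cells, endothelium and the blood in its vessels. Whole liver was measured, so fewer cells of a type and less RNA per cell cannot be told apart in any of the values given here.

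On the 6 arrays between 46.2% and 50.9% of spots were well above background, and no spot was saturated. Values are log2 intensities after normexp background correction and quantile normalization, so that a difference of 1 is 2-fold, and levels can be compared between mice but not between probes. The number of arrays, 3 per dose, limits the precision. The 8 Gy arrays all lie on slide 2, as does the 12 Gy mouse 6 array, whereas the arrays of 12 Gy mice 16 and 26 lie on slide 3 with no other liver array. For those mice slide and dose cannot be told apart, and values for mouse 6 alone against the 8 Gy mice, all on 1 slide, are given where a result turns on them. The 0 Gy arrays all lie on slide 1 and the 4 Gy arrays all on slide 2. Differences from 0 Gy at 4, 8 and 12 Gy therefore span slides too. The design text of the series names hearts and its title names lung, so the label was checked: 15 of 15 hepatocyte markers were well above background on all 6 arrays, with means of 15.93 to 18.74. Of 8 heart markers, *Actc1* and *Myl7* were well above background on all 6 arrays, *Ryr2* and *Myl2* on none and the other 4 on some, with means of 3.90 to 7.47. Outside the 6 arrays the heart list stood high in 2 Gy mice 13 and 23, with medians of 3.13 and 5.13 relative to the 8 Gy mean. In the other livers it was -0.35 to 0.85. Both arrays enter the fit and the 2 Gy means quoted below, and the reason was not tested. Of 10 lung markers 4 were well above background on all 6 arrays, and *Foxj1* on none. The secretory genes of lung airway cells *Scgb1a1* and *Scgb3a2*, chosen after their values were seen, stood out in 12 Gy mouse 16, at 11.46 against 5.30 to 7.32 in the other 5 mice and at 8.72 against 4.59 to 5.26. The lung list as a whole did not stand out there, with a median relative to the 8 Gy mean of 0.10 in mouse 16 and of 0.23 in 8 Gy mouse 15.

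No probe passed the thresholds of an absolute log2 difference above 1 and a Benjamini-Hochberg adjusted p below 0.05 between 12 and 8 Gy (0% of 38362, limma), and none passed the adjusted p alone. At an unadjusted p below 0.05 there were 3753 probes (9.78%), 1822 higher and 1931 lower at 12 Gy, and the smallest adjusted p was 0.111. The other settings tried gave between 0 and 13 probes called, apart from 2 that rest on mouse 6 alone as the only 12 Gy array on slide 2 (192 with slide as a term in the fit, 56 within slide 2). Leaving out 1 mouse gave 0 to 11 calls, the 11 without 8 Gy mouse 25 and 4 without 8 Gy mouse 15. For the step below, between 8 and 4 Gy, which shares the 8 Gy arrays, 2 probes were called (0.00521%). Against 0 Gy, 362 probes were called at 4 Gy, 846 at 8 Gy and 790 at 12 Gy. The 0 Gy arrays share no slide with the arrays of these doses, so slide and dose cannot be told apart in these counts. The 8 and 4 Gy arrays, in contrast, all lie on slide 2.

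A missed threshold does not show that the doses act alike, and the intervals give the sizes that the data leave possible. Of the 22479 probes well above background on all 6 arrays, 20994 (93.4%) had a 95% interval that lay within 2-fold either way, and the median distance from the difference to either end of its interval was 0.34. Their measured differences were below 0.5 in size for 95.3%, and 60 probes had a measured difference above 2-fold. The root mean square difference between arrays was 0.33 to 0.43 within 8 Gy, 0.27 to 0.34 within 12 Gy and 0.33 to 0.42 between the doses.

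**Figure D1:**
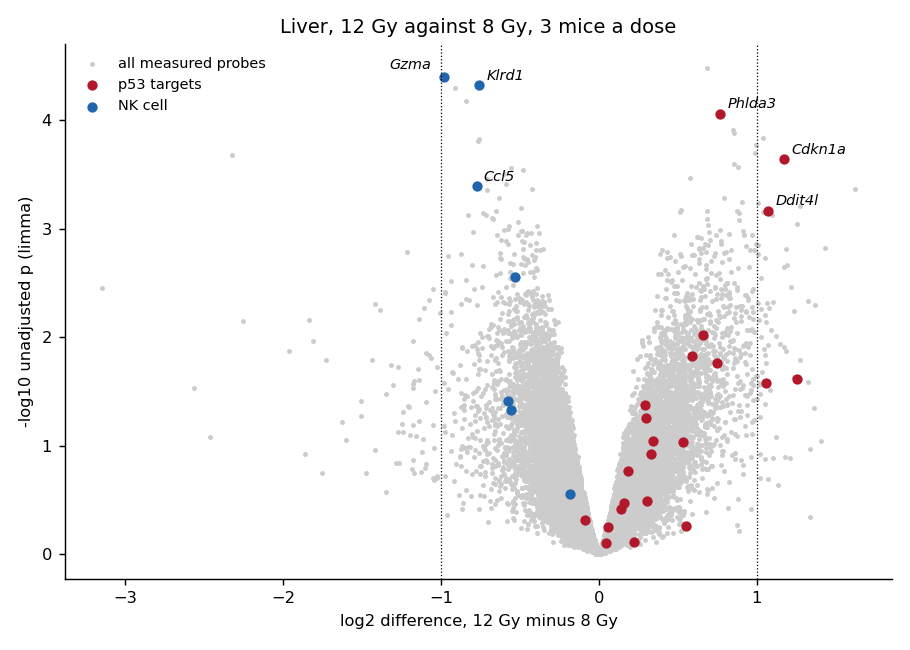
Log2 difference, 12 Gy minus 8 Gy, on the horizontal axis against -log10 of the unadjusted limma p on the vertical axis, 1 point per measured probe, with p53 targets in red, NK cell genes in blue and dotted lines at a 2-fold difference. No probe passed an adjusted p below 0.05, and the smallest adjusted p was 0.111.

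Gene lists were therefore described by how many of their measured members lay higher or lower at 12 Gy, with 1 probe per gene, the brightest. A probe counts as measured where it was well above background on at least 1 array at each dose, which held for 26623 probes with a median difference of -0.01. As background for the members, all 3 mice at 12 Gy lay above all 3 at 8 Gy for 6.67% of the 26310 measured probes with a value in every mouse, and below them for 8.85%. No member of any of 33 lists was called.

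The p53 targets lay higher at 12 Gy almost throughout. Of 22 listed, 22 were measured, 21 were higher and 1 was lower (*Ei24*, -0.09, and above 0 at 0.02 on the authors' series values), with a median difference of 0.34, the highest of the 33 lists. In 7 of them the mice of the doses did not overlap, all with 12 Gy above, against the 6.67% of all probes. The median of the list in each mouse, relative to the 8 Gy mean of each gene, was -0.25, 0.08 and 0.16 at 8 Gy and 0.28, 0.32 and 0.47 at 12 Gy, so the doses did not overlap. The smallest adjusted p of a member was 0.321 (limma), and over 19 other settings 17 to 21 members were higher (the 17 came without 8 Gy mouse 5), and the list median was 0.28 to 0.52.

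*Cdkn1a*, which encodes p21, the inhibitor of cyclin-dependent kinases that halts the cell cycle, read 11.23, 11.80 and 11.83 at 8 Gy and 12.58, 12.62 and 13.18 at 12 Gy. Every mouse at 12 Gy lay above every mouse at 8 Gy. The difference was 1.17 (SE 0.24, 95% interval 0.66 to 1.69, a 2.26-fold higher level, adjusted p = 0.351 in limma), with 0.96 for mouse 6 within slide 2 and 1.28 for mice 16 and 26. Its mean was 6.47 at 0 Gy, 9.05 at 1 Gy, 9.81 at 2 Gy and 10.67 at 4 Gy, so the step from 8 to 12 Gy continued an ordered series, which spans slides. The dimmer probe of the gene, on another transcript, differed by 0.17 (SE 0.22) and its mice overlapped.

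*Phlda3*, which encodes a pleckstrin homology protein that restrains Akt, read 10.30, 10.57 and 10.74 at 8 Gy and 11.24, 11.41 and 11.28 at 12 Gy. The doses did not overlap, and the SD of the 12 Gy mice was 0.09 (n = 3). The difference was 0.77 (SE 0.14, 95% interval 0.46 to 1.08, 1.71-fold, adjusted p = 0.321 in limma), 0.70 within slide 2 and 0.81 for mice 16 and 26.

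*Ddit4l*, a stress-induced inhibitor of mTOR signalling, read 6.18, 6.76 and 7.08 at 8 Gy and 7.72, 7.75 and 7.76 at 12 Gy. The difference was 1.07 (SE 0.25, adjusted p = 0.359 in limma), and its mean was 5.45 at 0 Gy and 6.09 at 4 Gy. *Sesn2*, a sestrin of the oxidative stress response, read 8.71, 8.82 and 8.69 against 9.19, 9.29 and 9.51, a difference of 0.59 (SE 0.21). *Plk2*, a polo-like kinase, differed by 0.75 (SE 0.28) and *Aen*, an exonuclease of apoptosis and a bright member, by 0.29 (SE 0.13), both without overlap. *Aen* has 3 further probes, of which 1 differed by 0.44 without overlap and 2 by 0.22 and 0.05 with overlap. *Bbc3*, which encodes the pro-apoptotic protein Puma, was 0.66 higher at 12 Gy without overlap (SE 0.22), yet its mean at both doses, 9.60 and 10.26, lay under the 10.58 of the 0 Gy mice.

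The other members overlapped or could not be compared. *Mdm2*, the ubiquitin ligase that degrades p53, read 12.09, 12.45 and 12.51 at 8 Gy and 12.51, 12.29 and 12.39 at 12 Gy, a difference of 0.04 (95% interval -0.28 to 0.36) that took the opposite sign without 8 Gy mouse 5 or without 12 Gy mouse 6. A second and dimmer *Mdm2* probe differed by 0.63 without overlap, so the probes of this gene disagree. *Eda2r*, a receptor of the tumour necrosis factor family, read 8.12, 7.29 and 7.06 against 8.00, 7.59 and 7.79, a difference of 0.30 (95% interval -0.33 to 0.93). *Zmat3*, an RNA-binding protein, differed by 1.25 but with an SE of 0.50, because the 8 Gy mice ranged from 5.58 to 8.12, and by 0.67 without 8 Gy mouse 5 and 1.94 without 8 Gy mouse 15. *Ccng1* (0.33), *Gdf15* (0.22, with 8 Gy mice from 10.85 to 13.25) and *Perp* (0.06), the brightest member, also overlapped, and the signs of the *Gdf15* and *Perp* differences turned without 8 Gy mouse 5 or without 12 Gy mouse 26. *Gtse1* was well above background on 1 array at each dose and lacks a value in 8 Gy mouse 25.

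**Figure D2:**
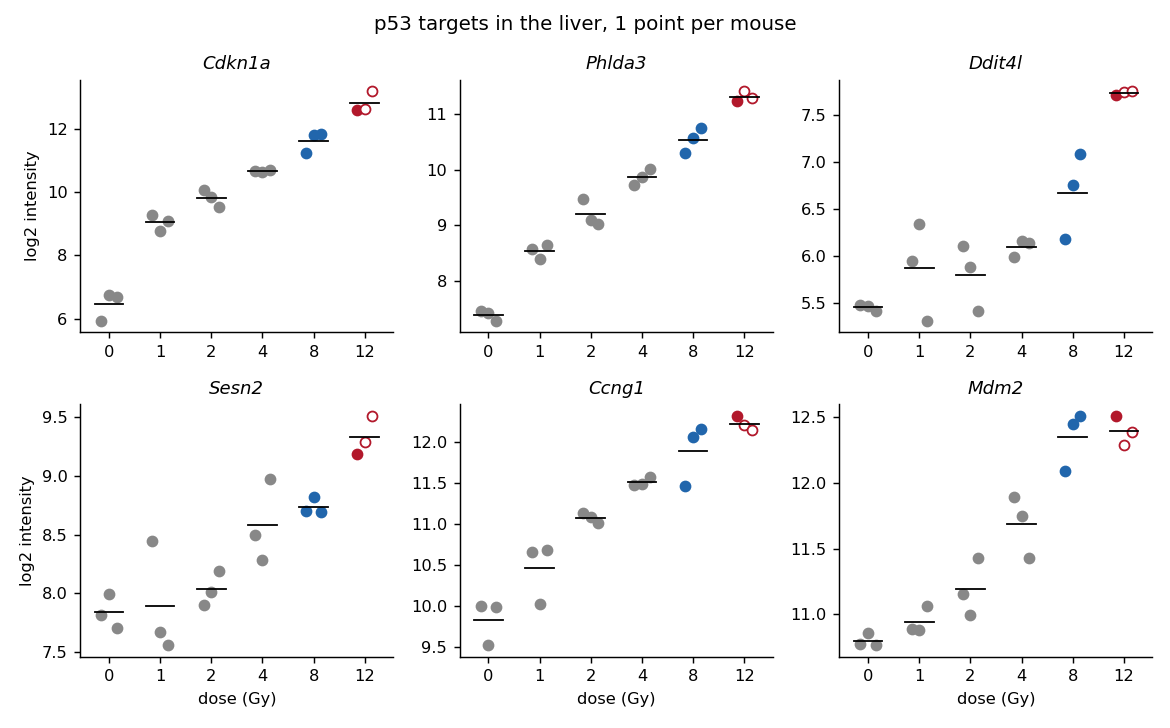
Log2 intensity of p53 target genes in each liver against dose in Gy, 1 point per mouse, with bars at the dose means. Blue points are 8 Gy and red points 12 Gy (filled for mouse 6 on slide 2, open for mice 16 and 26 on slide 3), and grey points are the other doses. *Cdkn1a* lies between 11.23 and 11.83 at 8 Gy and between 12.58 and 13.18 at 12 Gy.

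The promoters of *Cdkn1a* and *Phlda3*, the p53 targets called at 4 Gy against 0 Gy with the smallest p between 12 and 8 Gy, are shown so that the bases before their starts can be compared. The 250 bases before the annotated start were read from RefSeq (mouse GRCm38.p6, plus strand). Capitals mark the motif CATG, any 6 bases, then CATG, which reads the same on both strands and is a simplified core of the p53 element. *Cdkn1a* has 2 starts, preceded by the windows chr17:29090729-29090978 and chr17:29093519-29093768, and *Phlda3* has 1, preceded by chr1:135765835-135766084.
Cdkn1a, upstream start: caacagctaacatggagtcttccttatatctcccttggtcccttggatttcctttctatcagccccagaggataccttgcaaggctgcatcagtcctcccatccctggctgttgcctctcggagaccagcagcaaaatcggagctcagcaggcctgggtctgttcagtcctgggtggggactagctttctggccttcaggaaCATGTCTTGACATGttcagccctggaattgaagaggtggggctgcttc
Cdkn1a, downstream start: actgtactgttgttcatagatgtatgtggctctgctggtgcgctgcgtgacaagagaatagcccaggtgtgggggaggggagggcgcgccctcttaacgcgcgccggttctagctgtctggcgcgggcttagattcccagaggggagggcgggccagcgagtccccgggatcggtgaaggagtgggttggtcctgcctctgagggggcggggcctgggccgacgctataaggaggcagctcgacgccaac
Phlda3: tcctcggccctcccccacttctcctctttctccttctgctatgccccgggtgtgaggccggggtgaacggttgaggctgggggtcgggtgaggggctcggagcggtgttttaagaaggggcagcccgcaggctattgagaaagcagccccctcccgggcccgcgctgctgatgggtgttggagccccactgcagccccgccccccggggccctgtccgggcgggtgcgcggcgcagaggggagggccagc
The motif stands at -48 to -35 from the upstream *Cdkn1a* start and in neither of the other windows. It was found in 161 of 32851 starts (0.49%) and in 1 of the 25 starts of the 18 list members that the promoter table holds. A match is a description of these letters and not a site shown to be bound, and its absence says nothing about p53 at the other starts.

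Among leukocyte genes, most measured members of the NK cell, T cell, MHC class II and Kupffer cell lists lay lower at 12 Gy, while those of the B cell and neutrophil lists lay on both sides of 0. Of 12 listed NK cell genes 7 were measured, all 7 were lower, and in 4 the doses did not overlap, against 8.85% of all probes. The list median was -0.57, and in each mouse it was 0.02, -0.12 and 0.10 at 8 Gy and -0.92, -0.43 and -0.64 at 12 Gy. All 12 Gy mice thus lay under all 8 Gy mice, and 6 or 7 members were lower over 19 other settings, with medians from -0.92 (within slide 2) to -0.42.

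*Gzma*, the granule protease granzyme A, read 7.68, 7.54 and 7.75 at 8 Gy and 6.29, 7.07 and 6.67 at 12 Gy. The doses did not overlap and mouse 6 was the lowest. The difference was -0.98 (SE 0.17, 95% interval -1.34 to -0.62, 1.97-fold lower, adjusted p = 0.274 in limma). It passed the thresholds on the processed signal scaled to the 75th percentile (-1.29, adjusted p = 0.026) and with slide as a term (-1.37, adjusted p = 0.00778), where the estimate rests on mouse 6. *Klrd1*, which encodes the receptor chain CD94, read 6.40, 6.15 and 6.46 at 8 Gy and 5.40, 5.82 and 5.51 at 12 Gy, where it was well above background on 2 of 3 arrays. Its difference was -0.76 (SE 0.13, adjusted p = 0.274), and on the processed signal -1.18 (adjusted p = 0.0455). With slide as a term it was -0.94 (adjusted p = 0.0409). These 2 genes were the only list members past an adjusted p of 0.05 under the settings run.

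*Ccl5*, a chemokine of cytotoxic lymphocytes, read 9.04, 9.10 and 9.17 at 8 Gy and 8.30, 8.67 and 8.02 at 12 Gy, a difference of -0.77 (SE 0.17, adjusted p = 0.359 in limma). *Nkg7*, a protein of cytotoxic granules, read 7.23, 7.30 and 7.26 against 6.69, 6.78 and 6.73, a difference of -0.53 (SE 0.15). In both the mice of a dose lay close together and the doses did not overlap. The *Gzma* mean was 8.51 at 0 Gy, 8.22 at 4 Gy, 7.66 at 8 Gy and 6.68 at 12 Gy. At the same doses the *Ccl5* mean was 10.17, 9.69, 9.10 and 8.33. Both means thus fell between 4 and 8 Gy too. The median of the NK cell list, relative to the 8 Gy mean of each gene, was 0.31, 0.67 and 0.49 in the 4 Gy mice.

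T cell genes lay lower as well, in 8 of 9 measured members of 13 listed, with a median of -0.32. In only 1 member did the doses not overlap, beside 8.85% of all probes. That member was *Cd3g*, a chain of the T cell receptor complex, at 6.36, 6.41 and 6.51 against 6.12, 6.21 and 5.49 (-0.49, SE 0.22, and -0.26 without 12 Gy mouse 26). The bright members *Zap70*, a receptor-proximal kinase, and *Cd4* differed by -0.32 and -0.35 with overlap. A second and dimmer *Cd4* probe differed by -0.73 (SE 0.17) without overlap. It was well above background on 3 arrays at 8 Gy and 1 at 12 Gy. Of the 15 B cell genes only 5 were measured, 2 higher and 3 lower with a median of -0.07, among them *Blnk*, a signalling adaptor, at 0.59 without overlap and the receptor chain *Cd79b* at -0.23. *Ms4a1*, which encodes CD20, was well above background on none of the 6 arrays, so no fold is given. *Serpina9*, a protease inhibitor of germinal centre B cells, was above background on 1 of the 6. Of 14 neutrophil genes 5 were measured, 3 higher and 2 lower, with a median of 0.20 that was the second highest of the 33 lists. None of the 5 was free of overlap, and the brightest, the cytokine receptor *Csf3r* and the iron-binding lipocalin *Lcn2*, differed by -0.06 and -0.27, the former at 0.086 on the processed signal.

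MHC class II genes, which present antigen to helper T cells, were lower at 12 Gy in 7 of 7 measured members of 10 listed, with a median of -0.46. In 2 members the doses did not overlap, against 8.85% of all probes. *H2-Ab1* read 9.78, 9.72 and 10.47 at 8 Gy and 9.54, 9.69 and 8.95 at 12 Gy, a difference of -0.60 (SE 0.36, 95% interval -1.36 to 0.17, adjusted p = 0.606 in limma). The gap between the groups was small, since 2 of the 8 Gy mice lay close to 2 of the 12 Gy mice. *H2-Aa* differed by -0.59 without overlap and *Cd74*, the invariant chain, by -0.46 with overlap (SE 0.36 and 0.37). Without 8 Gy mouse 25, which read highest for all 3 of these genes, 5 of 7 members were lower and the median was -0.28, with *H2-Ab1* at -0.36 and *H2-Aa* at -0.38. Without 12 Gy mouse 26 *H2-Ab1* was -0.38.

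Kupffer cell genes were lower in 12 of 13 measured members of 13 listed, with a median of -0.32, and in 8 the doses did not overlap, against 8.85% of all probes. *Adgre1*, which encodes the macrophage antigen F4/80, read 10.98, 10.78 and 11.34 at 8 Gy and 10.60, 10.40 and 10.34 at 12 Gy, a difference of -0.59 (SE 0.17, 95% interval -0.95 to -0.23, adjusted p = 0.394 in limma). Its means at 0 and 8 Gy were 11.05 and 11.04, but the list as a whole was not level between these doses. Relative to the 8 Gy mean of each gene, the list median was 0.28, 0.27 and 0.38 in the 0 Gy mice. In the 12 Gy mice it was -0.31, -0.36 and -0.28. *Csf1r*, the receptor for the macrophage growth factor, read 12.35, 12.23 and 12.79 against 12.01, 12.10 and 11.93 (-0.45, SE 0.14). *C1qa*, a chain of the complement component C1q, read 10.91, 10.95 and 10.93 against 10.49, 10.53 and 10.65 (-0.37, SE 0.12). The bright members *Cd5l* (-0.40) and *C1qc* (-0.27) did not overlap either, and the scavenger receptor *Cd163* was the exception, higher by 0.32 with overlap. Without 8 Gy mouse 25 *Csf1r* differed by -0.28 and *Cd5l* by -0.21. Within slide 2 mouse 6 gave 11 of 13 lower with a median of -0.31.

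Interferon-response genes, which are induced through the STAT factors, were lower in 18 of 19 measured members of 20 listed, with a median of -0.31. In 5 members the doses did not overlap, against 8.85% of all probes. *Isg15*, an interferon-induced ubiquitin-like protein, read 10.79, 10.47 and 11.01 against 10.14, 10.67 and 10.004, which overlap (-0.49, SE 0.20). *Gbp2*, an interferon-induced GTPase, differed by -0.71 without overlap (SE 0.43), with 8 Gy mouse 25 at 9.85 and the other 8 Gy mice at 8.67 and 8.77. The bright members *Bst2* and *Irf7* differed by -0.19 and -0.18, and on the authors' series values both were above 0, at 0.01 and 0.04. Without 8 Gy mouse 25 there were 15 lower of 19 with a median of -0.18 and *Gbp2* at -0.33, and without 8 Gy mouse 15 there were 19 of 19 with a median of -0.49, so the size of this shift depends on the 8 Gy mice used.

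**Figure D3:**
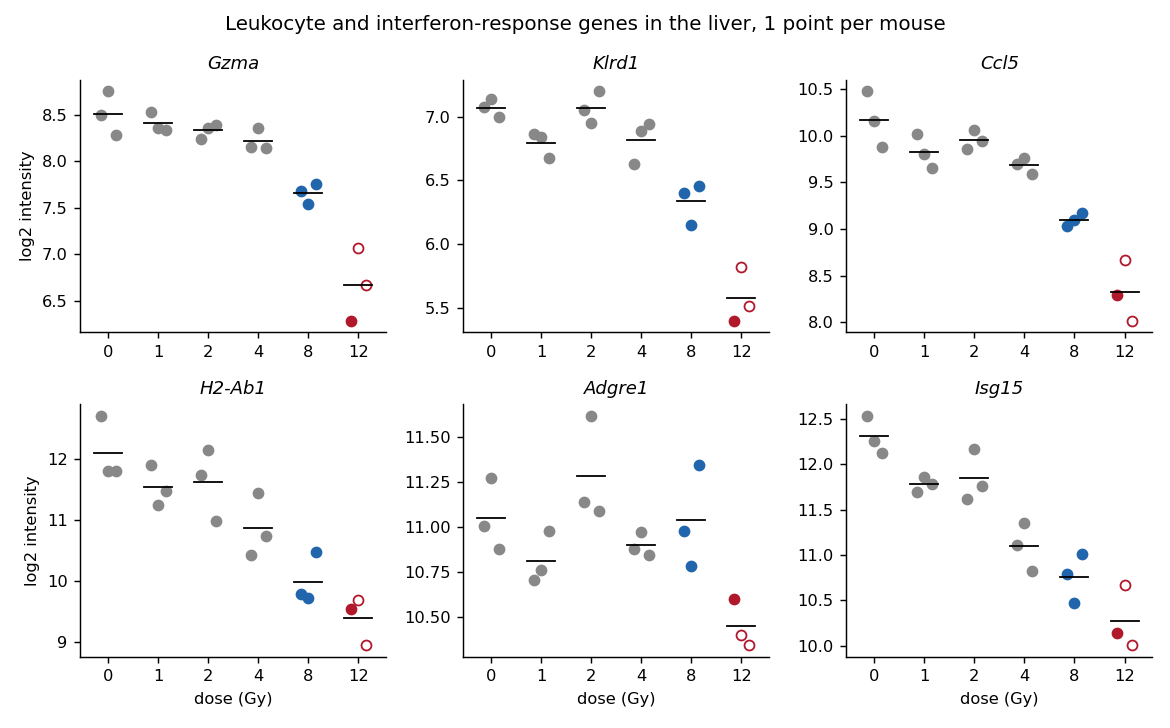
Log2 intensity of NK cell (*Gzma*, *Klrd1*, *Ccl5*), MHC class II (*H2-Ab1*), Kupffer cell (*Adgre1*) and interferon-response (*Isg15*) genes in each liver against dose in Gy, 1 point per mouse, with bars at the dose means and the colours as for the p53 targets. For *Gzma* the 8 Gy mice lie between 7.54 and 7.75 and the 12 Gy mice between 6.29 and 7.07.

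Transcripts of the globins, the oxygen carriers of red cells, were lower in 4 of 4 measured members with a median of -0.71, and of -0.45 without 8 Gy mouse 25 and -0.44 within slide 2. Other erythroid genes did not lie lower as a group, with 3 higher and 3 lower of 6 measured, a median of -0.0043 and no member free of overlap. Their brightest members were *Hemgn*, a nuclear protein of blood progenitors (-0.14), and *Alas2*, the erythroid enzyme of haem synthesis (-0.02, but 0.023 on the series values). *Hba-a1* read 10.05, 9.99 and 10.66 at 8 Gy and 9.76, 9.62 and 9.21 at 12 Gy, against a mean of 15.97 at 0 Gy. The doses did not overlap, but the difference of -0.70 had an SE of 0.39 (95% interval -1.53 to 0.13). *Hba-a2* differed by -0.64 and *Hbb-b2* by -0.79 without overlap, and *Hbb-b1* by -0.72 with overlap. *Hbb-bt* was well above background on 3 of 3 arrays at 8 Gy and 0 of 3 at 12 Gy, so only a bound can be given, at least 2.25-fold lower at 12 Gy (adjusted p = 0.452 in limma). The alpha globin genes are near-identical copies, and their probes may share signal. Shared signal was not tested for the alpha or the beta genes, so the 4 measured members may not be 4 separate readings.

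Genes of the hepatocyte lay near 0 as a group. The 15 hepatocyte markers had a median difference of -0.01, with no member free of overlap. *Alb*, which encodes albumin, differed by 0.01 (95% interval -0.15 to 0.18) and *Apoc3*, an apolipoprotein, by 0.03, and both lay below 0 on the processed signal scaled to the 75th percentile. Acute phase genes, which the liver secretes in inflammation, had 11 of 21 members higher and a median of 0.01. *Saa1*, a serum amyloid A, read 18, 17.76 and 17.84 at 8 Gy and 17.64, 18.29 and 17.43 at 12 Gy, a difference of -0.08 (95% interval -0.94 to 0.77), while its mean at 0 Gy was 13.95. *Saa2* differed by -0.09 and the bright members *Fgb*, a fibrinogen chain, and *Hpx*, the haem carrier, by 0.01 and -0.04. *Saa4*, which is expressed constitutively, read 13.22, 13.10 and 13.39 against 13.79, 13.53 and 14.01, without overlap (0.54, SE 0.20).

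Bile acid genes had a median of 0.05 with single members apart in both directions. *Slco1a1*, an uptake transporter of the sinusoidal membrane, read 10.19, 10.85 and 8.94 at 8 Gy and 11.12, 11.49 and 11.08 at 12 Gy. The doses did not overlap, and the difference was 1.23 (SE 0.38, 95% interval 0.42 to 2.05, adjusted p = 0.399 in limma). Its mean was 12.96 at 0 Gy, 10.08 at 4 Gy, 9.99 at 8 Gy and 11.23 at 12 Gy, so the 12 Gy mice lay nearer to the 0 Gy mice than the 8 Gy mice did. Without 8 Gy mouse 25, the lowest, the difference was 0.71. A second probe differed by 1.06 with overlap. *Abcb11*, the bile salt export pump, read 15.90, 15.82 and 15.76 against 15.11, 15.42 and 15.43, a difference of -0.51 (SE 0.12, adjusted p = 0.359). *Cyp7a1*, the rate-limiting enzyme of bile acid synthesis, read 13.79, 13.53 and 13.80 against 13.26, 13.15 and 13.02, a difference of -0.56 (SE 0.26) without overlap. The bright members *Slc27a5* and *Slc10a1* differed by -0.02 and 0.07.

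**Figure D4:**
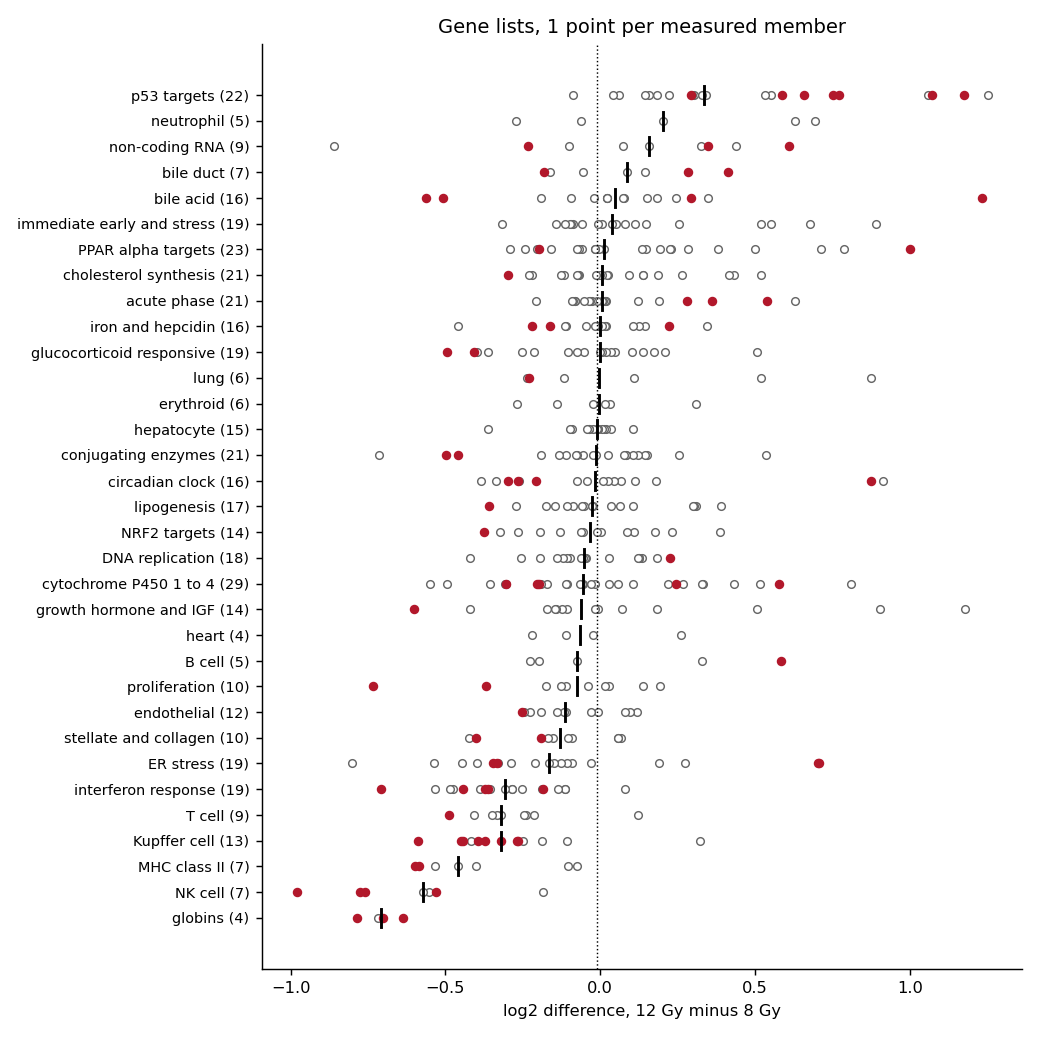
Log2 difference, 12 Gy minus 8 Gy, of each measured member of the gene lists, 1 point per gene, with the number of measured members in brackets, a black bar at the list median and a dotted line at the median of all measured probes (-0.01). Red points are genes whose 8 and 12 Gy mice do not overlap. The p53 targets have a median of 0.34 and the NK cell, MHC class II and globin lists medians of -0.57, -0.46 and -0.71.

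Among single genes of lipid handling and other metabolism, most overlapped between the doses. The phosphatidate phosphatase genes *Lpin1* and *Lpin2* differed by 0.33 and 0.49, the latter without overlap but by 0.22 without 8 Gy mouse 5, and the lipid droplet genes *Plin4* and *Plin5* by -0.22 and -0.12. *Scd1*, the stearoyl-CoA desaturase, differed by -0.27, the carnitine transporter *Slc22a5* by 0.45 and the retinoic acid hydroxylase *Cyp26a1* by -0.69 (SE 0.67). The signs of *Plin4* and *Plin5* turned without 12 Gy mouse 16, and that of *Lpin1* within slide 2. *Hsd3b5*, a steroid dehydrogenase of male-biased expression, differed by 0.90 with an SE of 0.57, and by 0.07 without 8 Gy mouse 25, which was low at 6.00 while the other 8 Gy mice read 7.98 and 9.01. *Pdk4*, the kinase that limits pyruvate oxidation, read 8.09, 8.47 and 8.50 against 8.91, 8.69 and 10.45, a difference of 1.00 (SE 0.39) without overlap, in which mouse 26 stood well above the rest, and 0.45 without it. *Nfil3*, a clock-linked transcription factor, differed by 0.87 (SE 0.29) without overlap, and by 0.57 without mouse 26. The host gene *Snhg15*, a non-coding RNA, read 9.07, 10.02 and 9.68 against 10.12, 10.24 and 10.23 (0.61, SE 0.20), without overlap, and differed by 0.35 without 8 Gy mouse 5. *Pdk4* and *Nfil3* were chosen after their values were seen, as were the list members named above that are neither among the brightest 2 of their list nor among genes set for naming. No probe was named *Trp53cor1*.

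Some genes outside the lists were singled out after their values were seen, for the smallest p or the largest difference, and carry no test beyond the adjusted p. The smallest adjusted p of all, 0.111 in limma, belonged to a probe for the cDNA AK017113, which read 6.14 and 6.43 in 8 Gy mice 5 and 15, was dropped as an outlier spot in mouse 25, and read 4.44, 4.50 and 4.55 at 12 Gy. It was well above background on none of the 12 Gy arrays, so its level there is uncertain. The measured difference was -1.79 (SE 0.22, 3.47-fold lower at 12 Gy), which rests on mice 5 and 15 at 8 Gy. The probe was called under 6 other settings. Among genes measured at both doses, *Dyrk3*, a dual-specificity kinase, was higher at 8.62, 8.37 and 8.58 against 7.76, 7.80 and 7.96 (0.68, SE 0.12, adjusted p = 0.274), as were *Pkdcc* (0.86) and *Plpp1* (0.58). *Ntrk2*, which encodes the neurotrophin receptor TrkB, was lower at 7.15, 7.19 and 6.84 against 7.87, 7.84 and 8.19 (-0.91, SE 0.16, adjusted p = 0.274), as were *B4galt5* (-0.76) and the formyl peptide receptor gene *Fpr1* (-0.63).

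The largest of these differences was in *Sult2a4*, a hydroxysteroid sulfotransferase, at 11.25, 9.02 and 10.64 in the 8 Gy mice and 6.93, 6.13 and 8.43 in the 12 Gy mice. The doses did not overlap, yet the mice of one dose differed by more than 2 and the difference was -3.14 with an SE of 0.90 (95% interval -5.08 to -1.21, adjusted p = 0.394 in limma). Its mean was 7.93 at 0 Gy, 10.28 at 2 Gy and 10.68 at 4 Gy, and the 12 Gy mice lay within the range of the 0 Gy mice, 5.95 to 9.36. *Sult2a5* differed by -2.25 without overlap, well above background on 1 of 3 arrays at 12 Gy, and *Sult2a1*, *Sult2a2* and *Sult2a6* by -2.56, -1.73 and -1.81 with overlap, whereas *Sult2a7* (0.61) and *Sult2a8* (0.14) lay on the other side of 0. Probes of related *Sult2a* genes may share signal, which was not tested, so these differences count as uncertain.

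Probes that already differed between 4 and 0 Gy were followed next. The means behind that choice came from the 0 and 4 Gy arrays, which are other arrays than those compared. The choice is still not independent, because the normalization and the spread in the fit also used the 8 and 12 Gy mice. Probes with a small spread in those mice were more likely to be called, which can raise their shares without overlap. The 0 Gy arrays lie on slide 1 and the 4 Gy arrays on slide 2, so this choice cannot tell slide from dose. At 4 Gy against 0 Gy 123 probes were called higher (0.321% of those tested) and 239 lower (0.623%). Of the former 115 were measured at 8 and 12 Gy, and 58 lay higher still at 12 Gy and 57 lower, with a median difference of 0.00. Without overlap were 13 higher still (11.3%, beside 6.67% of all measured probes) and 9 in the reverse direction (7.83%, beside 8.85%), the former with *Cdkn1a* (1.17) and *Phlda3* (0.77) and the latter with *Ccn2* (-0.76), a matricellular growth factor gene, which was named after its value was seen. Of the probes called lower 143 were measured, 97 lay lower still and 46 higher, with a median of -0.12, and of the 140 with a value in every mouse 15 did not overlap in the same direction (10.7%, beside 8.85%) and 3 in the reverse direction (2.14%, beside 6.67%). Those 15 included *H2-Aa* and the globin genes *Hba-a1* (-0.70 and -0.77 on separate probes), *Hba-a2* (-0.64) and *Hbb-b2* (-0.79). The globin probes may share signal, so the 15 may not be separate readings. Part of the 10.7% thus rests on globins, and no share without them was computed. The 3 included *Slco1a1*. Among all measured probes 12814 lay higher and 13809 lower.

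**Figure D5:**
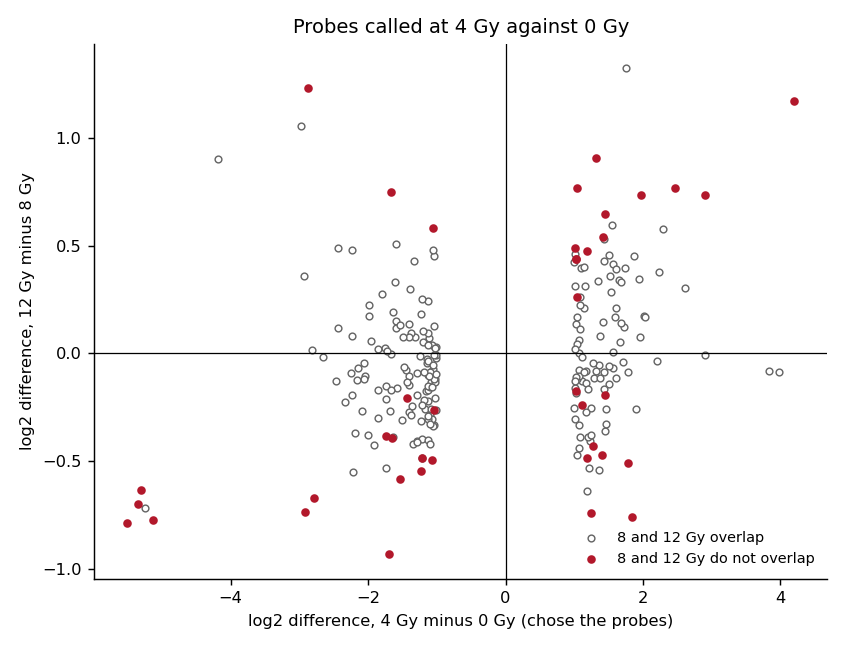
Log2 difference, 12 Gy minus 8 Gy, on the vertical axis against log2 difference, 4 Gy minus 0 Gy, on the horizontal axis for the probes called at 4 Gy, 1 point per probe, red where the 8 and 12 Gy mice do not overlap. Of the probes lower at 4 Gy 97 of 143 lie lower still at 12 Gy, and of those higher at 4 Gy 58 of 115 lie higher still.

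Lung arrays carry the same mouse numbers and doses, and the liver difference was set against that of the lung in 1 fit of 36 arrays normalized together. The lung arrays of 8 Gy mice 5 and 15 lie on slide 4, and that of 8 Gy mouse 25 lies on slide 5 with all 3 of the 12 Gy lung arrays, so most of the lung difference also spans slides. No probe was called for the difference between the tissues (0 of 47376, and 0 at an adjusted p below 0.05 in limma), with 6001 at an unadjusted p below 0.05 and a smallest adjusted p of 0.112. Without mouse 25 in both tissues 1118 probes were called, but slide and dose then coincide fully in the lung and cannot be told apart. Of the 24193 probes measured in both tissues 64.3% lay higher at 12 Gy in the lung, with a median of 0.12, and within slide 5, against mouse 25 alone, 55.8% did, with a median of 0.04. Hepatocyte markers were higher at 12 than at 8 Gy in the lung arrays, in 15 of 15 members with a median of 1.24. Within slide 5, against mouse 25 alone, 14 of 15 were higher with a median of 2.17. Their part in the lung values was not tested.

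In this fit *Cdkn1a* differed by 0.99 in liver and 0.56 in lung, and by 0.13 in lung within slide 5, and the tissues differed by 0.44 (SE 0.31, adjusted p = 0.591 in limma). The p53 list lay higher in 19 of 21 members in the lung with a median of 0.41, and within slide 5 in 15 of 21 with a median of 0.21. The NK cell list was lower in 7 of 7 members in the lung both ways, with a median of -0.47 and, within slide 5, of -0.72. The lung median of the MHC class II list was 0.18 over all arrays and -0.21 within slide 5. That of the Kupffer cell list was -0.15 and 0.19, and that of the globins -0.63 and 0.09. The direction of each of these lists thus turned with the 8 Gy arrays used. Within slide 5 mouse 25 is the only 8 Gy mouse, so slide and mouse cannot be told apart there. For *H2-Ab1* the tissues differed by -0.76 (SE 0.38, adjusted p = 0.407) and for *Adgre1* by -0.66 (SE 0.31, adjusted p = 0.369).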

How the data were processed

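Liver mRNA of 18 mice, 3 at each of 6 doses, was hybridised by the authors to 1-colour Agilent mouse arrays and read with Feature Extraction 11.5.1.1. The deposited scanner files hold linear intensity values per spot, not normalized between arrays, and the authors' series values, also intensity but scaled per array, served only as an alternative. The study's methods give normexp correction, quantile normalization, a filter on background and a linear model, which were followed here. The use of median spot intensity, an offset of 0, the dropping of control spots and the setting of outlier spots to missing were choices made here, and spots were averaged per probe, whereas the study averaged probes per transcript. For probes spotted several times, a share of 0.5 or more of the spots had to exceed background for the probe to count as above it, and probes that did so on at least 1 liver array were tested. One limma model of 6 dose groups gave the 12 minus 8 Gy contrast with Benjamini-Hochberg adjustment, with calls made past a log2 difference of 1 in either direction together with an adjusted p below 0.05. The p-values measure the spread between mice, 1 array each.

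R 4.3.3, limma 3.58.1, statmod 1.5.0, the data.table package (version 1.17.8), the data.table package (version 1.17.8), Python 3.11.15 and matplotlib 3.10.9 were used, and the fit was tested on simulated data. RefSeq accessions named 34566 of 56605 probes, and a gene is shown by its brightest probe. Genes were named if called, if list members at an adjusted p below 0.05, if among the brightest 2 of a described list, or from a set list (*Cdkn1a*, *Mdm2*, *Phlda3*, *Eda2r*, globins, *Ms4a1*, *Serpina9*, *Saa1*, *Saa2*, *Gdf15*, *Hsd3b5*, *Cyp26a1*, *Slc22a5*, *Lpin1*, *Lpin2*, *Plin4*, *Plin5*, *Scd1*, *Trp53cor1*, *Snhg15* and *Alb*). The comparison and the lists were chosen with earlier results of these data known. Alternatives covered background correction, scaling, filters, outlier spots, slide and each mouse left out.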

Additional observations from a re-analysis of the deposited data

How the results depend on the processing

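Against 0 probes called between 12 and 8 Gy, 4 were called on the processed signal scaled to the 75th percentile, 1 on normexp values so scaled, 1 on the series values, 1 with a filter on all 3 arrays of a dose, 192 with slide as a term, 56 within slide 2, 13 with liver and lung arrays fitted together (chosen after seeing the data) and 0 to 11 with 1 mouse left out. At an adjusted p alone the counts were 1 with an offset of 50, then 4, 1, 1, 1, 196, 56, 13 and 0 to 11. List members past an adjusted p of 0.05 numbered 2 on the processed signal and 2 with slide as a term. The liver minus lung difference gave 1 call with mouse number as a replicate block, 8 with an offset of 50 and 0 to 1118 with 1 mouse left out (1118 without mouse 25, where lung slide and dose coincide). The doses share no mouse number, so the 12 against 8 Gy difference has no paired fit, and tissue deviations of the same number correlated from -0.14 to 0.25, above 0.1 in 3 of 18. The other settings gave 0 calls, and the counts of probes called at 4 Gy stayed within 1.5 times. With 3 arrays per dose and dim probes near background, small differences are limited by precision, and the cause of each change was not tested.

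Some differences near 0 took the opposite sign. They were, on the processed signal, *Alb* -0.028, *Apoc3* -0.015, *Csf3r* 0.086, *Hpx* 0.0081 and *Slc27a5* 0.057. On normexp values scaled to the 75th percentile they were *Alas2* 0.0018, *Alb* -0.019, *Csf3r* 8.2e-05, *Fgb* -0.022 and *Slc27a5* 0.014. On the series values they were *Alas2* 0.023, *Bst2* 0.0064, *Csf3r* 0.13, *Ei24* 0.020, *Hpx* 0.056, *Irf7* 0.043, *Saa1* 0.031 and *Slc27a5* 0.10. With only the 6 arrays the value was *Fgb* -0.0044, and with slide as a term, as within slide 2, *Apoc3* -0.062, *Cd79b* 0.13, *Fgb* -0.0052 and *Lpin1* -0.033. With each mouse left out in turn the differences that turned sign ranged from -0.15 to 0.16 for *Alas2*, -0.0073 to 0.030 for *Alb*, -0.028 to 0.081 for *Apoc3*, -0.50 to 0.0027 for *Cd79b*, -0.14 to 0.029 for *Csf3r*, -0.054 to 0.054 for *Fgb*, -0.42 to 0.78 for *Gdf15*, -0.11 to 0.026 for *Hpx*, -0.086 to 0.12 for *Mdm2*, -0.015 to 0.13 for *Perp*, -0.53 to 0.18 for *Plin4*, -0.40 to 0.015 for *Plin5*, -0.33 to 0.096 for *Saa1*, -0.31 to 0.089 for *Saa2* and -0.052 to 0.024 for *Slc27a5*.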
